A study of Mus musculus with 3 samples.

Results

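Mesenchymal cells of the mouse cochlea at embryonic day 15 (E15) that carried collagen IX and matrilin-4 transcripts are described here. They were chosen by a rule on unique molecular identifiers (UMIs, the counted transcript molecules) in both E15 libraries. A cell needed at least 500 genes detected, at most 20% mitochondrial UMIs, no UMI of Epcam, Cdh5, Sox10 or Ptprc, at least 3 UMIs of Col1a2 and Col3a1 together, and at least 4 UMIs of Col9a1, Col9a3 and Matn4 together. The rule selected 1439 of 3697 E15 mesenchymal cells, which were among 6375 filtered E15 cells and 15272 barcodes in the whole series. The other 2258 mesenchymal cells are the comparison group. The working name of these cells is chondrogenic otic capsule mesenchyme. Cartilage genes such as Acan were highest in the few cells with the most UMIs of the 3 genes, so the cells are called collagen IX cells after the genes that chose them.

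The otic capsule is the cartilage, later bone, that encloses the inner ear, and it forms from mesenchyme that condenses around the otic epithelium. In cartilage, SOX9 with its partners SOX5 and SOX6 switches on the genes of the matrix, where fibrils of collagens II, IX and XI hold the proteoglycan aggrecan. Periotic mesenchyme also gives rise to fibrocytes of the lateral wall and spiral limbus, which later secrete cochlin and otoraplin, and to the tissue that hollows out into the perilymph spaces.

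Whole cochleae of C57BL/6J mice were dissociated with papain and thermolysin, sorted to remove debris and profiled with the Chromium 3' v3 kit, in 2 libraries of E15 (replicates 1 and 2) and 1 of postnatal day 7 (P7). The labels give no other treatment or genotype, and they do not say that the E15 libraries came from separate litters, so the p-values measure only the spread between these 2 libraries. Totals were 46530036 and 44304364 UMIs in E15 replicates 1 and 2 and 93829443 at P7. The libraries shared 3 to 6 barcodes per pair. In replicate 1 the rule took 638 of 1630 mesenchymal cells (39.1%, exact 95% binomial interval 36.8 to 41.6), and in replicate 2 it took 801 of 2067 (38.8%, 36.6 to 40.9). These intervals cover counting error only. A fixed minimum of UMIs favours deeper cells. The collagen IX cells had medians of 18415 and 14573 UMIs per cell, against 13483 and 9861 in the rest. With every cell thinned to 5000 UMIs before the rule was applied, the shares were 15.3% and 18.2%.

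The genes of the rule are given as a description, since they chose the cells. Levels are counts per 1000000 UMIs (CPM) of all UMIs summed over a class of cells in a library. Col9a1 and Col9a3 encode chains of collagen IX, which decorates collagen II fibrils. The level of Col9a1 was 380 and 440.4 CPM in the collagen IX cells of replicates 1 and 2, against 40.1 and 51.7 CPM in the rest. Col9a3 stood at 352 and 383 CPM against 14.8 and 17.4. Matn4, which encodes a matrilin that links matrix filaments, stood at 53.9 and 52.8 CPM against 4.58 and 4.93. In mouse build GRCm38, Col9a1 lies on chromosome 1 (24177610 to 24252684, plus strand), Col9a3 on chromosome 2 (180597790 to 180622189, plus strand) and Matn4 also on chromosome 2 (164389393 to 164405160, minus strand), so the 3 genes are not neighbours.

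The cells on either side of the minimum of 4 UMIs were close in some genes and apart in others. Cells with exactly 4 UMIs (55 and 102 cells) had Col2a1 at 744 and 764 CPM, and those with 3 UMIs (112 and 126 cells) had it at 696 and 673. Coch stood at 32.2 and 40.6 CPM with 4 UMIs and at 27.5 and 44.3 with 3. Crym, which encodes the thyroid hormone binding protein mu-crystallin, stood at 2803 and 2502 CPM with 4 UMIs and at 2081 and 2386 with 3. The transcription factor gene Osr1 stood at 35.1 and 38.5 CPM with 4 UMIs and at 66.8 and 60.9 with 3. Osr1 thus lay lower in the cells just inside the minimum in both libraries, while the order of Coch differed between libraries. A further 45 and 80 cells carried 4 UMIs or more but fell under the minimum of Col1a2 and Col3a1.

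The other genes were compared between the collagen IX cells and the rest of mesenchyme on UMIs summed per library and class, with the library as a block. Because the cells were chosen by 3 genes measured in the same cells, this test asks how far each other gene followed those 3 genes, over 2 libraries. Of 13390 genes tested outside the rule, 340 were called higher (2.54% of those tested) and 436 lower (3.26%), at an adjusted p under 0.05 (edgeR quasi-likelihood test, Benjamini-Hochberg) and a fitted fold of at least 2. A gene given as not called missed the p, the fold or both. With cells thinned to 5000 UMIs before the rule was applied, 195 were higher and 263 lower, and 135 and 156 of these were among the first sets.

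Of genes at 50 CPM or more in the collagen IX cells, Coch had the largest difference, and Crym and Otor, further genes known from cochlear mesenchyme, were also higher. Coch, which encodes cochlin, an abundant protein of the fibrocyte matrix, stood at 98.0 and 104 CPM in the collagen IX cells of replicates 1 and 2 and at 11.6 and 15.3 CPM in the rest, a fitted log2 difference of 2.99 ± 0.07 (SE; edgeR adjusted p = 6.04e-10). Both libraries gave the same direction without overlap between classes. Crym stood at 3097 and 3538 CPM against 1186 and 1260 (log2 difference 1.51 ± 0.03). Otor, which encodes otoraplin, a small secreted protein of cochlear mesenchyme and cartilage, stood at 1160 and 1367 CPM against 517 and 588 (1.27 ± 0.03). After thinning each cell to 2000 UMIs, a Crym UMI was seen in 90.4% and 91.1% of collagen IX cells, in 66.1% and 66.9% of the rest, and in 27.9% and 20.2% of the cells with a Sox10 UMI, whose share serves as a guide to free RNA. Cells with an Epcam UMI showed it in 68.5% and 64.4%, close to the rest of mesenchyme. A Coch UMI was seen in 13.2% and 16.2% of collagen IX cells, 2.73% and 2.29% of the rest and 0.546% and 0.962% of the Sox10 cells.

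Further genes among the 14 with the largest rise encode matrix proteins and a tendon regulator. Col9a2, the remaining chain of collagen IX (chromosome 4, 121039385 to 121055322, plus strand) and not a gene of the rule, rose from 69.2 and 82.4 CPM in the rest to 262 and 282 CPM (log2 difference 1.92 ± 0.05, edgeR adjusted p = 1.17e-09). Scx, which encodes scleraxis, the transcription factor of tendon progenitors, rose from 37.8 and 41.4 to 123 and 135 CPM (1.78 ± 0.04). Of the other tendon genes tested, Mkx (0.48 ± 0.12), Thbs2 (0.09 ± 0.20) and Egr1 (-0.22 ± 0.05) were not called. Fbln2, which encodes the elastic-fibre protein fibulin-2, rose from 58.1 and 63.8 to 178 and 184 CPM (1.65 ± 0.04). Postn, the gene of the matricellular protein periostin, rose from 22.4 and 19.4 to 59.6 and 55.6 CPM (1.53 ± 0.07). The protease inhibitor gene Serpine2 rose by 1.49 ± 0.04 on the log2 scale, Sec11c, a subunit of the signal peptidase, by 1.496 ± 0.04, and Limch1, an activator of non-muscle myosin, by 1.99 ± 0.08. Car3, a carbonic anhydrase gene, rose by 1.35 ± 0.13, but unevenly: the log2 difference was 1.74 in replicate 1 and 0.93 in replicate 2. Ube2c, Tk1 and Aurka, which act in cell division, complete the 14 and are described with the cell cycle.

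The 10 genes with the largest fall, among those at 50 CPM or more in the rest, included a pericyte marker, a retinoic acid carrier and a transcription factor. Rgs5, a regulator of G-protein signalling that marks pericytes, stood at 0.308 and 0.476 CPM in the collagen IX cells against 59.0 and 54.1 CPM in the rest (log2 difference -7.07 ± 0.16, edgeR adjusted p = 6.04e-10). An Rgs5 UMI was present in 33 of 992 and 39 of 1266 cells of the rest, so few cells carried the signal. Crabp2, which encodes a carrier of retinoic acid, fell from 159 and 155 to 26.0 and 31.6 CPM (-2.37 ± 0.06). Osr1 fell from 145 and 139 to 33.7 and 34.3 CPM (-1.99 ± 0.04). Dlk1, which encodes a membrane protein that holds back differentiation, fell from 62.5 and 53.0 to 11.6 and 14.4 CPM (-2.08 ± 0.11). The imprinted noncoding RNA Meg3 fell from 352 and 344 to 97.3 and 101 CPM (-1.73 ± 0.05). Ppp1r1a, an inhibitor of protein phosphatase 1, and Ppp1r3b, a subunit of that phosphatase, had log2 differences of -2.01 ± 0.05 and -1.69 ± 0.06. Anxa2, an annexin gene, had -1.89 ± 0.06, Arhgap20 -1.80 ± 0.08 and Aard -1.78 ± 0.06. With cells that carried an Rgs5, Kcnj8 or Abcc9 UMI left out of both classes, 9 of these 10 genes were still called lower, all but Rgs5, which that filter sets to 0.

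**Figure D1:**
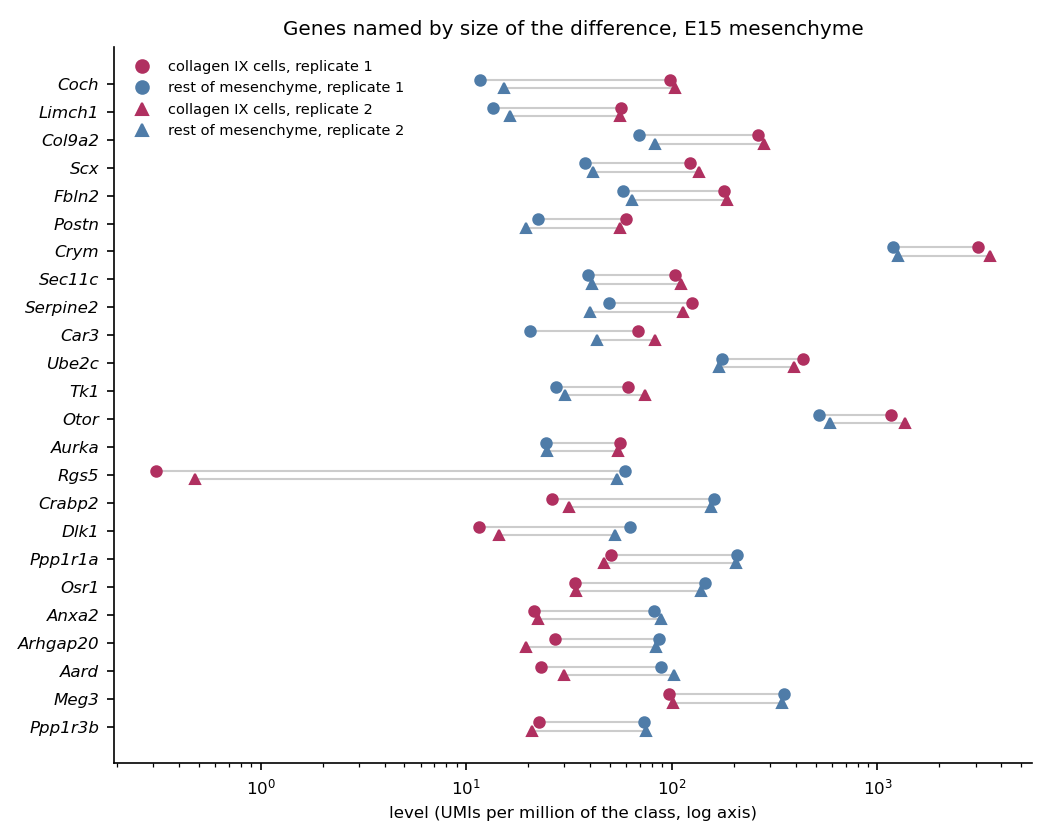
Level of the 24 genes named by the size of their difference, in CPM on a log axis, with collagen IX cells in red and the rest of mesenchyme in blue (circles, E15 replicate 1; triangles, replicate 2). The libraries lie close together for each gene, the widest gap between them being for Car3 in the rest of mesenchyme (20.4 and 43.4 CPM).

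The cartilage matrix genes as a group were higher. Of the 18 tested, 14 were called higher and none lower, with a median log2 difference of 1.88, against -0.01 over all genes tested. Over all genes tested outside the rule, 2.54% were called higher and 3.26% lower, the background for the list counts here and below. Col2a1, the gene of the main cartilage collagen, stood at 1147 and 1095 CPM against 560 and 568 CPM in the rest (log2 difference 1.06 ± 0.03). Col11a2, a collagen XI chain that nucleates the fibril and the marker of these cells that the rule did not use, stood at 12.8 and 12.3 CPM against 3.49 and 3.46 (1.92 ± 0.15, edgeR adjusted p = 3.44e-06). Acan, the aggrecan gene, stood at 3.85 and 3.17 CPM against 0.205 and 0.147 (4.32 ± 0.41). Hapln1, which encodes the protein that links aggrecan to hyaluronan, stood at 10.7 and 9.76 CPM against 3.01 and 1.62 (2.21 ± 0.21). Epyc, the gene of the small proteoglycan epiphycan, stood at 10.7 and 13.0 CPM against 0.274 and 0.441 (5.10 ± 0.25). Susd5, Ucma, Cytl1, Mia, Scin, Prelp, Chad, Otor and Col9a2 were the others called higher. The calls of Prelp and Chad were lost with DESeq2 (adjusted p = 0.216 and 0.583). Col11a1 (0.35 ± 0.04), Col27a1 (0.71 ± 0.05), Matn2 (-0.25 ± 0.21) and Fmod (-0.11 ± 0.28) were not called. Matn1, Matn3, Comp, Cnmd and Snorc, genes of more mature cartilage, were too low to be tested.

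Of 18 chondrogenic transcription factors and cofactors tested, 6 were called higher and none lower, with a median of -0.09. Sox9 stood at 253 and 244 CPM in the collagen IX cells and at 111 and 127 CPM in the rest (log2 difference 1.14 ± 0.05). Sox5 stood at 39.3 and 34.9 CPM against 17.0 and 14.6 (1.31 ± 0.08). Sox6 stood at 8.86 and 9.60 CPM against 3.01 and 3.31 (1.62 ± 0.17). The others were Sox8 (1.06 ± 0.20), Runx1 (1.64 ± 0.15) and Wwp2 (1.14 ± 0.08), a ubiquitin ligase gene whose product binds SOX9. Sox8 was not called with DESeq2 (adjusted p = 0.154) or with cells thinned to 5000 UMIs (edgeR adjusted p = 0.0800). Runx1 fell under the fold minimum without the Col1a2 and Col3a1 minimum (0.28). Wwp2 did so with a minimum of 2 UMIs of the 3 genes (0.80) and with cycling cells left out (0.62). The forkhead genes Foxc1 and Foxc2, which act in early periotic mesenchyme, had values of -0.42 ± 0.04 and -0.40 ± 0.04 and were not called.

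Genes of hypertrophic cartilage and bone did not share the pattern of the matrix genes. Of the 9 tested only Ibsp, the bone sialoprotein gene, was called higher, at 4.01 and 5.48 CPM against 2.26 and 2.21 (log2 difference 1.15 ± 0.23), and it was not called with DESeq2 (adjusted p = 0.161). Runx2, the regulator of bone formation, stood at 8.32 and 8.49 CPM against 6.84 and 8.75 (0.19 ± 0.14). Sp7, its partner in osteoblasts, had a difference of -0.09 ± 0.33, and Pth1r, the receptor that holds back hypertrophy, -0.10 ± 0.06. The other 11 genes of the list, Ihh and Col10a1 among them, did not pass the filter on low counts.

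**Figure D2:**
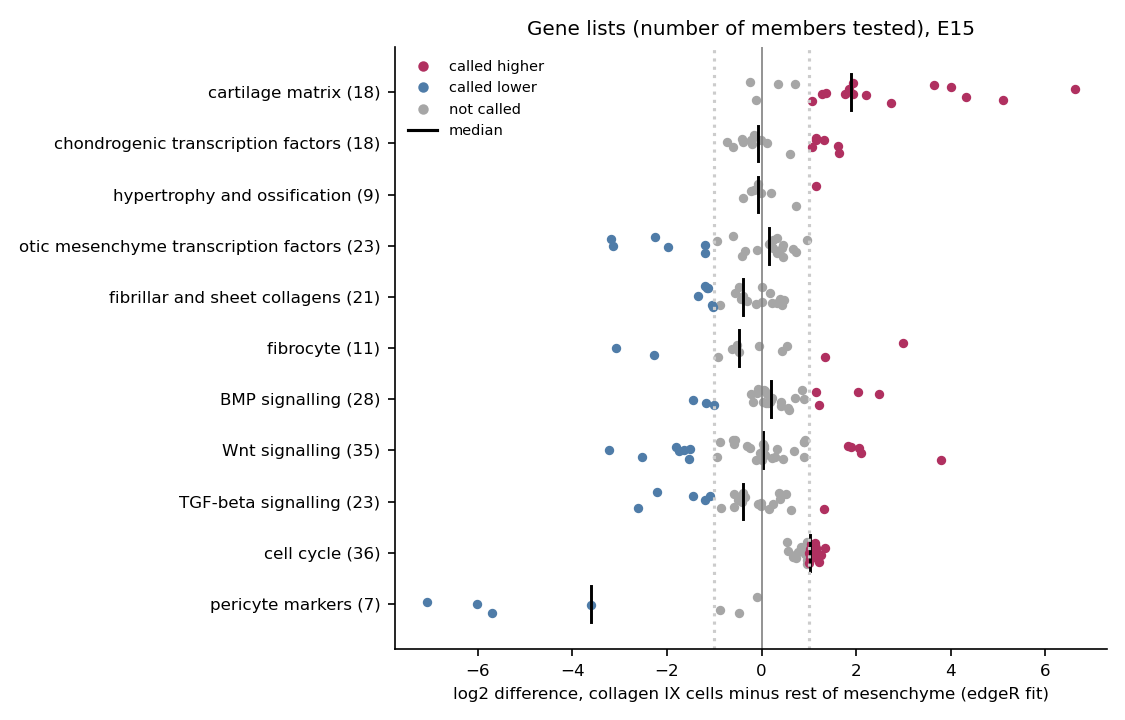
Fitted log2 difference (collagen IX cells minus rest of mesenchyme) of each tested member of 11 gene lists at E15, with called members in colour and the median of each list as a black bar. Cartilage matrix (median 1.88) and cell cycle (1.015) lie to the right, pericyte markers (-3.61) to the left, and most other lists straddle 0.

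Of 23 otic mesenchyme transcription factors tested, 6 were called lower and none higher, although the median of the list was 0.15. Besides Osr1, these were Osr2 (log2 difference -2.26 ± 0.23), Tbx2 (-3.14 ± 0.23), Tbx15 (-3.19 ± 0.63), Foxp1 (-1.20 ± 0.04) and Foxp2 (-1.19 ± 0.04). With cells that carried an Rgs5, Kcnj8 or Abcc9 UMI left out, Tbx2 was no longer called (-0.39, edgeR adjusted p = 0.487), and Tbx15 was not called with DESeq2 (adjusted p = 0.121). Foxp1 and Foxp2 fell under the fold minimum with cycling cells left out (-0.94 and -0.81). Foxp1 stood at 233 and 235 CPM against 571 and 564 CPM in the rest, and Foxp2 at 83.4 and 74.7 CPM against 195 and 184. Pou3f4 and Tbx18, whose loss disturbs the otic mesenchyme and causes deafness in mice, differed little: Pou3f4 stood at 438 and 467 CPM against 412 and 445 (0.15 ± 0.03), and Tbx18 at 264 and 253 CPM against 231 and 229 (0.24 ± 0.04).

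Collagen VI genes and some other collagens outside the cartilage matrix list were lower. Of 21 fibrillar and sheet collagen genes tested outside the rule, 6 were called lower and none higher (median -0.40). They were the collagen VI genes Col6a1 (33.9 and 39.1 CPM against 84.3 and 86.9, log2 difference -1.16 ± 0.05), Col6a2 (-1.20 ± 0.04) and Col6a3 (-1.05 ± 0.05), with Col13a1 (-1.34 ± 0.06), Col18a1 (-1.14 ± 0.12) and Col23a1 (-1.03 ± 0.06). With cycling cells left out, an alternative added after the data were seen, all 6 fell under the fold minimum, with differences from -0.99 to -0.39, and the list's median was -0.02; cells thinned to 5000 UMIs with a minimum of 2 left 1 of 19 lower. Among 20 genes of fibroblasts and perichondrium, Postn was the only one called higher. Crabp1, Crabp2, Aldh1a2, Cd34 and Ogn were called lower, with differences from -2.37 to -1.20. Ogn was not called with cells thinned to 5000 UMIs (-0.33, edgeR adjusted p = 0.188). Aldh1a2 makes retinoic acid and stood at 5.16 and 5.24 CPM against 27.2 and 16.3 CPM in the rest.

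The fibrocyte list was divided. Of 11 genes tested, with a median of -0.48, Coch and Car3 were called higher. The potassium channel gene Kcnk2 (5.24 and 3.81 CPM against 23.5 and 22.7, log2 difference -2.27 ± 0.13) and the prostaglandin synthase gene Ptgds (-3.07 ± 0.49) were called lower. Ptgds stood at only 0.231 and 0.159 CPM against 2.12 and 1.47 in the rest, so its fall rests on few UMIs.

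Enzymes that build or process matrix were called in both directions, where 2.54% of all genes were higher and 3.26% lower. Papss2, which supplies the sulphate donor for proteoglycans, was higher (4.70 and 4.52 CPM against 0.958 and 0.809, log2 difference 2.44 ± 0.27) and Csgalnact1, which starts chondroitin chains, was lower (-3.23 ± 0.27); the other 25 of 27 genes of sulphation and glycosaminoglycan synthesis were not called. Papss2 was not called with cells thinned to 5000 UMIs (edgeR adjusted p = 0.0958). Of 34 genes of collagen processing and secretion, Pcolce2 (1.82 ± 0.18) and Colgalt2 (1.36 ± 0.20) were higher and Lox (-1.54 ± 0.07), the cross-linking enzyme gene, and Creb3l1 (-1.14 ± 0.12) were lower. Lox fell under the fold minimum with cells thinned to 5000 UMIs (-0.94). Creb3l1 did so without the Col1a2 and Col3a1 minimum (-0.91). The hyaluronan synthase gene Has2 rose from 4.86 and 4.05 to 15.5 and 14.4 CPM (1.82 ± 0.14). Adamts20 (1.49 ± 0.10) and Adamtsl2 (2.39 ± 0.28) also rose, while Mmp16 (-1.26 ± 0.04) and Adamts1 (-1.44 ± 0.06) fell, among 3 higher and 4 lower of 27 genes of matrix breakdown and turnover.

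Signalling genes moved in both directions, where 2.54% of all genes were higher and 3.26% lower. Of 35 Wnt genes, 5 were higher and 7 lower (median 0.04). The secreted inhibitors Wif1 (18.1 and 18.0 CPM against 4.17 and 4.71, log2 difference 2.10 ± 0.13), Notum (1.88 ± 0.16) and Dkk1 (2.05 ± 0.34) were higher, as were the receptor gene Fzd9 (1.82 ± 0.11) and the ligand gene Wnt2 (3.80 ± 0.33). Wnt6 (2.39 and 1.90 CPM against 21.3 and 21.3, -3.23 ± 0.15), Wnt4, Wnt9a, Wnt16, Dkk2, Rspo1 and Sostdc1 were lower. Of 28 BMP genes, the inhibitors Nog (2.48 ± 0.27), Grem1 (2.04 ± 0.51) and Bmper (1.20 ± 0.15) and the signal transducer Smad9 (1.15 ± 0.25) were higher, and the ligands Bmp4 (-1.45 ± 0.07) and Bmp7 (-1.17 ± 0.07) and the inhibitor Chrd (-1.01 ± 0.15) were lower. Nog, which encodes noggin, stood at 5.32 and 5.24 CPM against 1.23 and 0.736. Grem1 and Smad9 were not called with DESeq2 (adjusted p = 0.327 and 0.265), nor were Dkk1, Wnt9a and Wnt16 (0.0583, 0.119 and 0.287). Bmper (0.59), Chrd (-0.35), Wnt9a (-0.62) and Wnt4 (-1.89) were not called with cells thinned to 5000 UMIs (edgeR adjusted p = 0.225, 0.506, 0.583 and 0.133).

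In the fibroblast growth factor list, Fgfr3, a receptor that limits cartilage growth, was higher (81 and 63 UMIs against 10 and 12, log2 difference 2.91 ± 0.28), and the ligands Fgf18 (-1.83 ± 0.16) and Fgf7 (-3.43 ± 0.47) were lower, among 22 genes tested. Fgf7 stood at only 0.231 and 0.159 CPM against 1.98 and 2.65 in the rest, so its fall rests on few UMIs. Pthlh, which encodes the peptide that keeps growth cartilage immature, was the only called gene of 14 in the hedgehog and PTHrP list, at 28.8 and 38.7 CPM against 15.4 and 14.9 (1.22 ± 0.11); with cells thinned to 5000 UMIs its difference was 0.87, under the fold minimum. Of 23 TGF-beta genes, 5 were lower and 1, Ccn2, was higher (14.6 and 15.1 CPM against 6.77 and 5.74, 1.31 ± 0.13). Of the 5, Tgfb1 (-1.09 ± 0.24) was not called with DESeq2 (adjusted p = 0.255), and its difference was 0.21 with pericyte-gene cells left out. The ligand gene Tgfb2 fell from 103 and 100 to 33.4 and 37.0 CPM (-1.46 ± 0.05). Among 25 genes of glycolysis and hypoxia (median 0.35), the lactate exporter gene Slc16a3 was higher (1.43 ± 0.19) and the hypoxia factor gene Epas1 lower (-1.42 ± 0.21), against 2.54% and 3.26% of all genes. Neither was called with cells thinned to 5000 UMIs (edgeR adjusted p = 0.502 and 0.224), and the difference of Epas1 was 0.62 with pericyte-gene cells left out. Of 26 integrins and matrix receptors, the collagen receptor gene Ddr1 (4.24 and 5.32 CPM against 9.78 and 10.4) and the glypican gene Gpc4 (-1.34 ± 0.17) were lower. None was higher, where 3.26% of all genes were lower and 2.54% higher.

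The collagen IX cells held more cell cycle transcripts. All 36 cell cycle genes had a fitted difference above 0, with a median of 1.015, and 21 were called higher. Ube2c, which drives the exit from mitosis, stood at 432 and 392 CPM against 175 and 169 CPM in the rest (log2 difference 1.34 ± 0.04). Top2a, the topoisomerase of dividing cells, stood at 425 and 395 CPM against 226 and 173 (1.12 ± 0.06). Tk1, which makes thymidine nucleotides, stood at 61.0 and 74.2 CPM against 27.4 and 30.2 (1.30 ± 0.06), and Aurka, a mitotic kinase gene, at 56.2 and 54.8 CPM against 24.5 and 24.7 (1.25 ± 0.06). The called number changed with the setting: with the rule applied to cells thinned to 5000 UMIs, the median was 0.76 and 1 of the 36 was called. That setting took 209 and 302 cells in place of 638 and 801, so depth and the cells of each class changed together. The cyclin-dependent kinase inhibitor gene Cdkn1a was also higher, at 39.4 and 43.3 CPM against 8.76 and 12.5 (2.04 ± 0.10), the only called gene of 13 inhibitors tested.

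Cells were counted as cycling if they kept at least 2 UMIs of the 36 genes after thinning to 2000 UMIs. In replicate 1 this held for 458 of 637 collagen IX cells (71.9%, exact 95% interval 68.2 to 75.4) and for 352 of 951 cells of the rest (37.0%, 33.9 to 40.2). In replicate 2 it held for 538 of 797 (67.5%, 64.1 to 70.7) and 484 of 1224 (39.5%, 36.8 to 42.3). The thinning left out 1 and 4 collagen IX cells and 41 and 42 cells of the rest; unthinned, the shares were 98.1% and 96.4% against 88.0% and 82.0%. With the rule itself applied at 5000 UMIs, the shares were 70.3% and 65.6% against 42.2% and 43.6%, so the gap between classes was 28.1 and 22.0 percentage points in place of 34.9 and 28.0. No test was made, since cells of a library are not replicates.

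**Figure D3:**
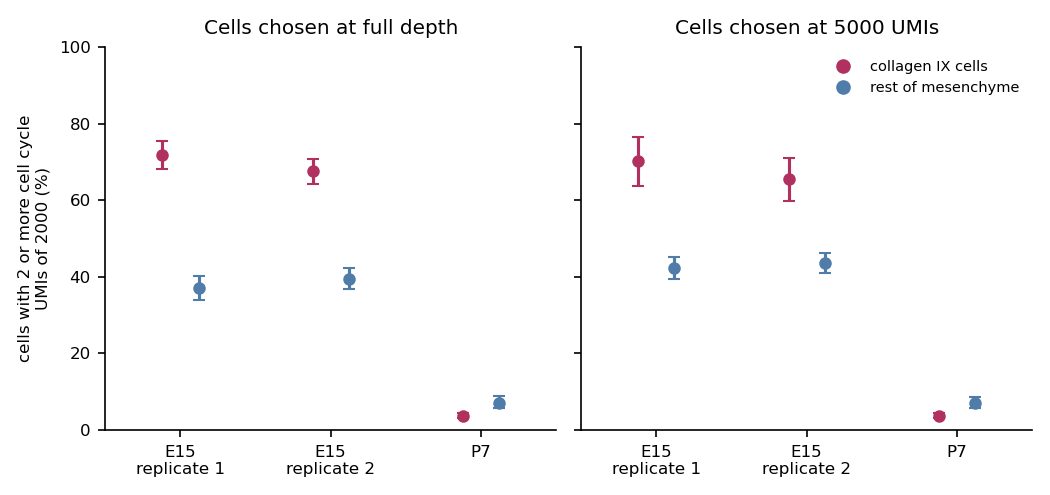
Percentage of cells with at least 2 cell cycle UMIs out of 2000, for collagen IX cells (red) and the rest of mesenchyme (blue) in each library, with exact 95% intervals; cells were chosen at full depth (left) or after thinning to 5000 UMIs (right). The collagen IX cells lie above the rest in both E15 libraries (71.9% and 67.5% against 37.0% and 39.5% on the left) and below it at P7 (3.64% against 7.16%).

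The collagen IX cells were not uniform. They held 553 cells with 4 to 7 UMIs of the 3 genes, 463 with 8 to 15 and 423 with 16 or more. The last group was divided at 40 UMIs after the values were seen, into 332 cells with 16 to 39 UMIs and 91 cells (6.32%; 54 and 37 in replicates 1 and 2) with 40 or more. These groups follow the genes of the rule, and depth rose with them, from medians of 16387 and 12663 UMIs per cell in the lowest to 24880 and 21613 in the highest, so the levels are a description with no test.

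The genes of the aggrecan matrix appeared at the upper end. Acan stood at 0.239 and 0 CPM in cells with 4 to 7 UMIs, 0.470 and 0.529 with 8 to 15, 0.969 and 3.20 with 16 to 39, and 30.6 and 33.6 with 40 or more. Col11a2 stood at 8.72 and 14.5 CPM with 16 to 39 UMIs and at 88.4 and 94.7 with 40 or more, and Hapln1 at 4.52 and 11.1 and then 68.9 and 79.7. Mia, which encodes a small secreted protein of cartilage, went from 15.8 and 40.7 to 122 and 149 CPM between the same groups, and Wwp2 from 32.3 and 43.6 to 191 and 171 CPM. Fgfr3 went from 6.14 and 7.56 to 38.3 and 27.4 CPM. Sox9 and Col2a1 rose more evenly, Sox9 from 185 and 188 CPM in cells with 4 to 7 UMIs to 480 and 473 with 40 or more, and Col2a1 from 749 and 851 to 2356 and 2130. Of the 18 cartilage matrix genes tested, 16 had their highest level in the cells with 40 or more UMIs in both libraries (88.9%, against 15.6% of all genes tested). Snorc had at most 0.235 CPM in any of these groups and Comp at most 0.323.

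Coch, Crym, Otor and Car2, chosen after their values were seen, did not peak there, and Otor is also on the cartilage matrix list. Of the 11 fibrocyte genes tested, 1 was highest with 40 or more UMIs in both libraries, 2 with 16 to 39 and 5 with 4 to 7 (15.6%, 4.59% and 13.4% of all genes). Coch rose from 41.3 and 49.4 CPM with 4 to 7 UMIs to 196 and 160 with 16 to 39, and stood at 73.8 and 136 with 40 or more. Crym stood at 4201 and 4358 CPM with 16 to 39 UMIs and at 2874 and 3221 with 40 or more. Otor was at 1254 and 1414 and then 790 and 867 CPM. Car2, another carbonic anhydrase gene, was at 308 and 278 and then 98.8 and 116 CPM. The cells with 40 or more UMIs were also tested against all other mesenchymal cells, an alternative added after the data were seen. That comparison group held the other collagen IX cells, so its differences cannot be set against those of the whole class. In the rest as first defined, Coch stood at only 11.6 and 15.3 CPM and Crym at 1186 and 1260. Against the wider group, Coch (0.95) and Crym (0.54) passed the p but not the fold minimum. Car3 (0.07) and Otor (-0.05) missed both there (edgeR adjusted p = 0.828 and 0.694). Car2 was called lower there (-1.11). That comparison called 427 genes higher, of which 187 were among the 340 of the whole class (55.0% of the 340 and 43.8% of the 427).

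Few collagen IX cells held a UMI of both Acan and Coch, and few held one of Acan at all. An Acan UMI was present in 49 collagen IX cells (24 and 25), and 5 of these also had a Coch UMI. A further 588 cells (267 and 321) had Coch without Acan, and 802 cells (347 and 455) had neither. In the Acan cells, with medians of 55 and 43 UMIs of the 3 genes, Col2a1 stood at 2868 and 2190 CPM, Hapln1 at 145 and 113 and Coch at 21.4 and 9.43. In the cells with Coch and no Acan, Col2a1 stood at 801 and 822 CPM, Hapln1 at 3.46 and 5.71, Scx at 197 and 201 and Crym at 4398 and 5074. In the cells with neither, Col2a1 stood at 1281 and 1211 CPM and Crym at 2214 and 2552. A gene of low count is missed in many cells that express it, so these numbers are of cells with a UMI, and the split was chosen after the values were seen. At P7 the same rule gave 782 cells with an Acan UMI, of which 699 also had a Coch UMI. Coch UMIs were common there without Acan as well, in 1780 of the 2364 selected P7 cells with no Acan UMI. Whether the 2 genes occurred together more often than these shares imply was not tested. An Acan UMI was seen in 3.41% of the E15 class, so by this marker the working name fits the upper end. Col11a2 was carried by the same end: 127 of its 166 UMIs in replicate 1 and 76 of 155 in replicate 2 were in cells with 40 or more UMIs, and with 4 to 7 UMIs it stood at 1.91 and 2.84 CPM, below the 3.49 and 3.46 CPM of the rest.

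**Figure D4:**
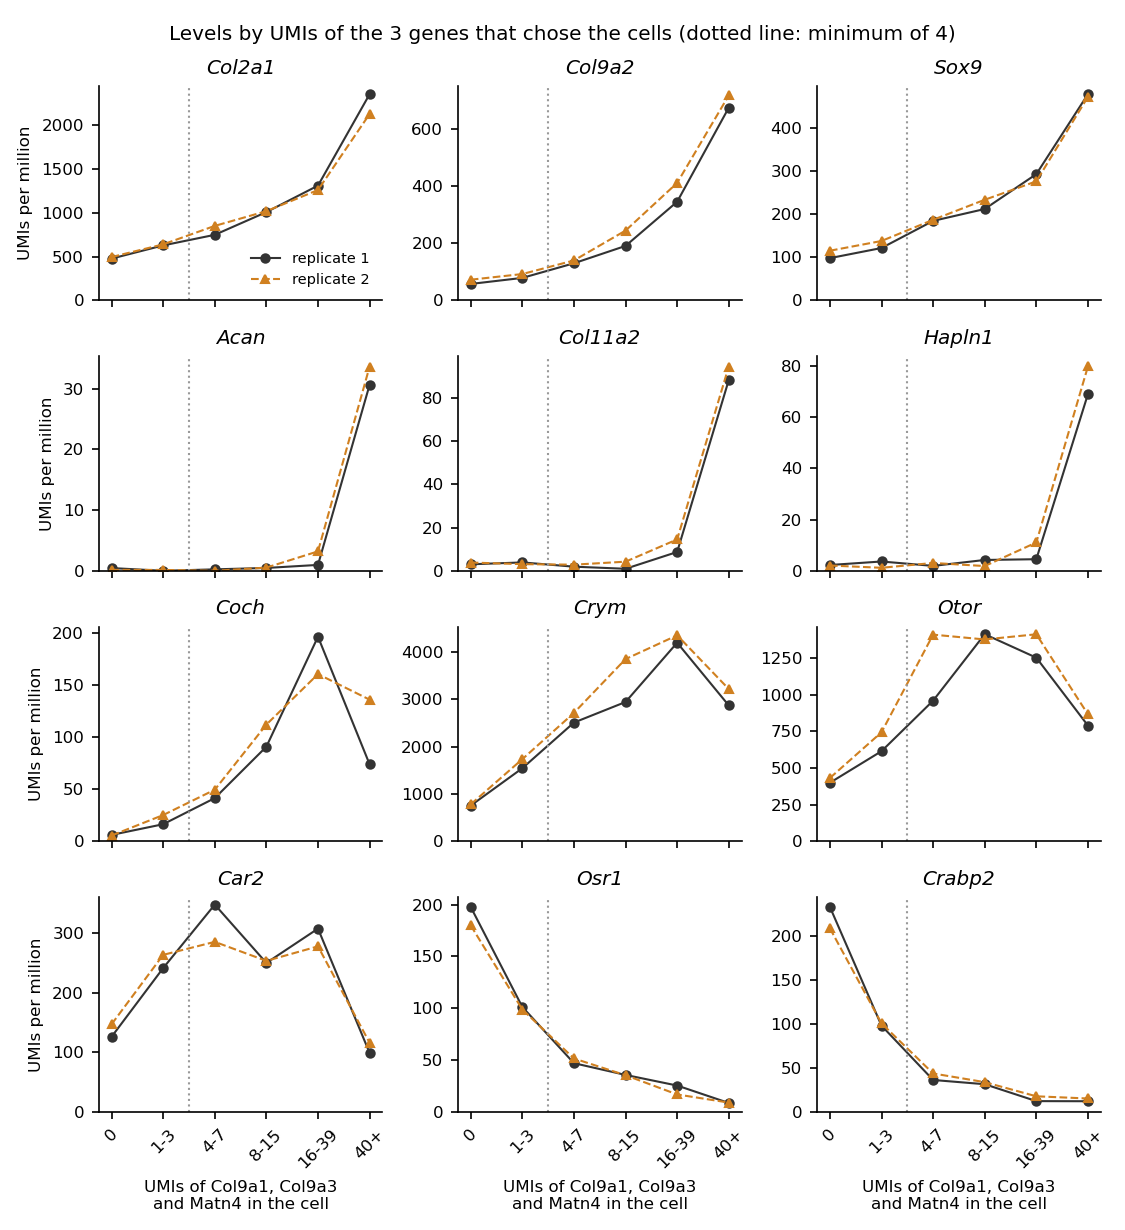
Level of 12 genes in CPM by the number of UMIs of Col9a1, Col9a3 and Matn4 in the cell, in E15 replicates 1 (black) and 2 (orange); the dotted line marks the minimum of the rule. Acan, Col11a2 and Hapln1 are low until the last group, Coch and Crym are highest with 16 to 39 UMIs, and Osr1 and Crabp2 fall across the range.

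Immune, epithelial, endothelial and glial markers were far below their level in the cells that define those types. The rule had left out every cell with a UMI of Ptprc, Epcam, Cdh5 or Sox10. A gap was thus built into this comparison, and it is no separate check of identity. Set against the rest of mesenchyme instead, the glial sum was higher, and the order of the erythroid sum differed between libraries. The summed level of 7 immune markers outside the rule was 1.08 and 0.714 CPM, with 2 and 1 of them at 0 (7656 and 8045 CPM in cells with a Ptprc UMI), that of 8 epithelial markers 11.3 and 12.1 CPM (122 and 300.3 in cells with an Epcam UMI), and that of 7 endothelial markers 113 and 102 CPM (2288 and 2729 in cells with a Cdh5 UMI, 151.6 and 156.6 in the rest); Emcn alone gave 111 and 101 CPM of it. The 7 glial markers outside the rule summed to 71.4 and 73.8 CPM, against 43.8 and 48.3 in the rest. In cells with a Sox10 UMI they summed to 5169 and 5804 CPM. Among them Fabp7, a fatty acid binding protein gene, was called higher at 49.0 and 51.4 CPM against 18.1 and 19.9 in the rest. The 8 pericyte markers summed to 91.6 and 89.9 CPM against 250.1 and 247 in the rest, and Rgs5, Kcnj8, Abcc9 and Acta2 were called lower. The 8 neuron markers summed to 36.5 and 48.7 CPM against 94.5 and 93.3, the 8 muscle markers to 2.62 and 3.89 against 9.17 and 9.05, and the 6 melanocyte markers to 35.1 and 21.7 against 34.3 and 30.7. What part these markers had in the differences was not tested, beyond leaving out cells with pericyte genes. Haemoglobin and Alas2 transcripts summed to 380 and 1882 CPM in the collagen IX cells and to 2711 and 1088 in the rest, in opposite order in the libraries, and none of 5 tested was called. Their calls changed with the setting: with cells thinned to 5000 UMIs 4 of 4 were called higher (median 3.18), and with marked doublets left out 5 of 5 were called lower (median -3.20), as were 5 of 5 against a rest with no UMI of the 3 genes. Scores for doublets marked 16 and 24 collagen IX cells. With all marked cells left out, the shares were 38.9% and 38.5%.

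The same rule applied at P7 took 3146 of 4233 mesenchymal cells (74.3%, 73.0 to 75.6), and Col9a1 stood at 5368 CPM in them and at 68.0 CPM in the P7 rest. The rule was therefore far less selective at P7, where a selected cell had a median of 72 UMIs of the 3 genes (10 and 9 at E15). Levels in the age comparison are per 1000000 UMIs of the genes listed in all libraries. The P7 library also differs in software version, and with 1 library its age and its library cannot be told apart. Whether the difference between collagen IX cells and the rest was itself different at P7 was tested as an interaction, in which the spread of P7 is assumed to be that of E15. Of 14514 genes, the P7 difference was larger for 781 (5.38%) and smaller for 637 (4.39%).

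Several genes of the E15 class had a difference at P7 that was not called as changed. Sox9 stood at 249 CPM in the P7 collagen IX cells and 114 CPM in the P7 rest, a log2 difference of 1.24 against 1.14 at E15 (interaction 0.10 ± 0.10, edgeR adjusted p = 0.490). Coch had differences of 2.84 at P7 and 2.99 at E15, with levels of 1030 and 155 CPM at P7. Scx had 1.73 and 1.78, and the interaction was -0.05 ± 0.17. Osr1 was lower by a similar amount at both ages, with -2.27 at P7 and -1.99 at E15 (interaction -0.28 ± 0.07, which passed the p but not the fold minimum). For the others, a p that misses the threshold does not show that the differences were alike.

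The cartilage matrix and fibrocyte lists were divided by age. Of 22 cartilage matrix genes tested, 9 had a larger and 6 a smaller difference at P7. Of 16 fibrocyte genes, 9 had a larger and 2 a smaller one. Over all genes the shares were 5.38% larger and 4.39% smaller. Col2a1 stood at 7641 CPM against 951 at P7, a difference of 3.11 against 1.06 at E15 (interaction 2.05 ± 0.03). Col9a2 stood at 1949 CPM against 135 (interaction 2.04 ± 0.06), Car3 at 4159 against 319 (2.43 ± 0.11) and Mia at 240 against 14.3 (2.42 ± 0.14). Ecrg4, which encodes a secreted peptide precursor, stood at 2601 CPM against 64.4 at P7, while its E15 levels were 1.55 and 2.40 CPM against 1.45 and 1.63 (interaction 5.02 ± 0.14). Cemip, which encodes a hyaluronan-degrading protein, turned round: its log2 difference was -2.99 at E15 and 2.31 at P7, where it stood at 128 CPM against 27.6 (interaction 5.31 ± 0.13).

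Cell cycle genes and several genes of the E15 lists had a smaller difference at P7. Ube2c, higher at E15, stood at 1.96 CPM against 5.58 at P7 (interaction -2.74 ± 0.18). Of the 36 cell cycle genes, 30 were called with a smaller difference at P7, against 4.39% of all genes. The cycling shares at P7 were 3.64% in the collagen IX cells and 7.16% in the rest. Hapln1, higher in the E15 class, stood at 0.604 CPM against 1.73 at P7 (-3.62 ± 0.58), and Epyc at 13.6 against 10.97 CPM (-4.69 ± 0.35). The P7 levels of Hapln1 rest on only 25 and 18 UMIs of 1 library. Fgfr3 stood at 5.70 against 6.16 CPM (-2.92 ± 0.40), Wnt2 at 2.51 against 2.70 (-3.79 ± 0.56) and Pthlh at 12.6 against 38.98 (-2.74 ± 0.16). Postn, higher in the E15 class, was lower in the P7 class, at 15.7 CPM against 53.9 (-3.21 ± 0.13). Acan stood at 52.3 CPM against 2.31 at P7. Its interaction of 0.27 ± 0.91 was not called, and with so large an SE it does not show whether the difference changed.

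**Figure D5:**
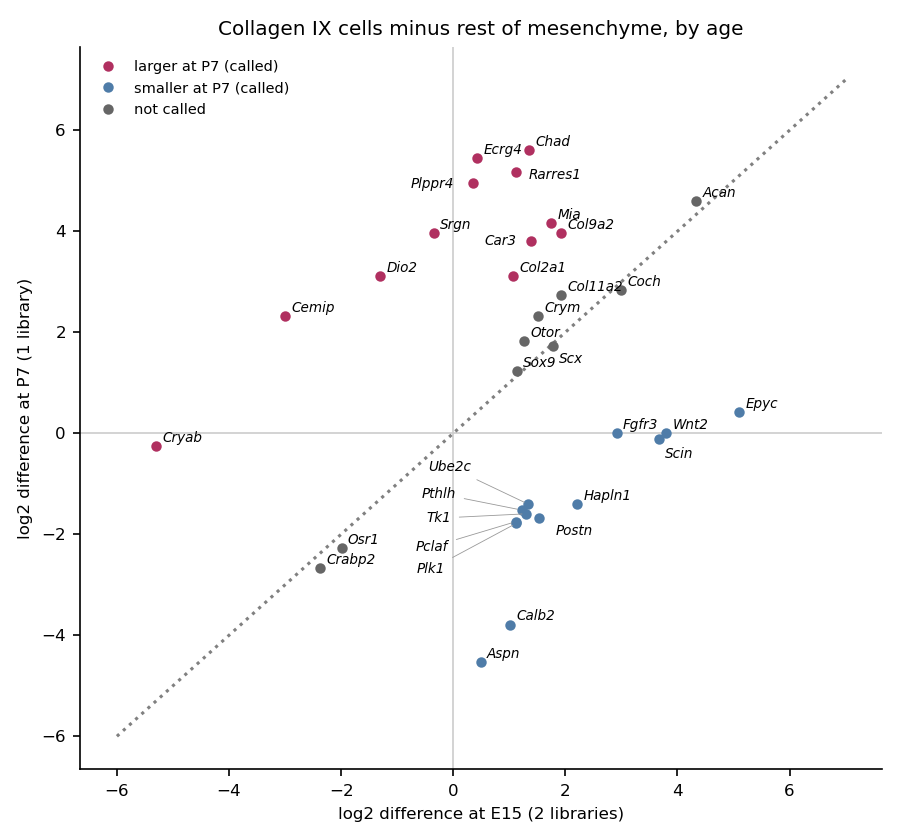
Fitted log2 difference (collagen IX cells minus rest of mesenchyme) at E15, from 2 libraries, against that at P7, from 1 library; red and blue points were called larger or smaller at P7 and grey points were not called. Sox9, Scx and Coch lie near the dotted line of equal differences, Col2a1 and Col9a2 above it, and Postn, Pthlh and the cell cycle genes below it.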

How the data were processed

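Single-cell RNA was counted in 2 E15 and 1 P7 library. The deposited matrices hold whole-number counts of UMIs by gene and barcode, not normalized, made by the authors with Cell Ranger; the submitters' processing notes name version 6.1.2 and GRCm38, and per the file headers the version was 6.1.2 for E15 and 3.1.0 for P7. How cells were called before deposit is not given in the sources used here. The lowest barcode total was 500 UMIs. Members and gene lists were chosen with earlier results of these data known.

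Cells under 500 genes (365, 350 and 595 in E15 replicates 1 and 2 and P7) or over 20% mitochondrial UMIs (31, 10 and 284 more) were left out. UMIs were summed per library and class and tested with edgeR 4.0.16 (limma 3.58.1, R 4.3.3): TMM scaling, filterByExpr, library as a block, quasi-likelihood test, with 1 residual degree of freedom per gene and an empirical Bayes prior from the other genes. A gene was called at an adjusted p under 0.05 and a fold of at least 2. SE is the log2 difference divided by the square root of F. The age test used the 27734 gene IDs listed in all libraries. The same scripts were tested on simulated data. Gene positions are those of GENCODE for GRCm38.

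Genes named are the 14 higher and 10 lower with the largest difference, at 50 CPM or more in the higher class and in the same direction in both libraries, without mitochondrial, ribosomal, haemoglobin, sex-linked or unnamed genes and rule genes; up to 8 called members per list, with defining members called or not; and for age up to 8 per direction plus list members. Further list members, such as Car2 and the rest of the called cartilage genes, were named after their values were seen. Doublets were scored with Scrublet (scanpy 1.11.5), marking the top scores at 0.008 per 1000 cells, and kept in the main results. Alternatives were RLE scaling, DESeq2 1.42.0, a test against a fold of 2, no low-count filter, no block, other UMI minimums, thinning, doublets left out, 10% mitochondrial UMIs, no Col1a2 and Col3a1 minimum, a rest with no UMI of the 3 genes, and the rule without Matn4. Figures used matplotlib 3.10.9. Other alternatives were added after the data were seen.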

Additional observations from a re-analysis of the deposited data

Results flagged for a closer look

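The difference between collagen IX cells and the rest of mesenchyme itself differed between E15 and P7, by the interaction test in edgeR with Benjamini-Hochberg adjustment, for the 25 genes given here. P7 is 1 library, its rule cells held far more UMIs of the 3 genes, and age and library cannot be told apart. The values are the log2 difference at P7 minus that at E15.

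Among genes chosen for their size, the value was 5.307 for Cemip, 5.045 for Cryab, 5.018 for Ecrg4, 4.600 for Plppr4, 4.408 for Dio2, 4.315 for Srgn, 4.243 for Chad and 4.052 for Rarres1. Cryab was lower in the E15 class (2 and 0 UMIs against 52 and 48) and stood at 102 CPM against 132 at P7. Plppr4, Dio2, Srgn, Chad and Rarres1 had at most 20 UMIs in any E15 class of a library, so their E15 side is poorly measured. The value was -5.024 for Aspn, -4.798 for Calb2, -3.785 for Scin, -3.210 for Postn, -2.909 for Plk1, -2.897 for Tk1, -2.867 for Pclaf and -2.738 for Ube2c. Aspn, which encodes the matrix proteoglycan asporin, stood at 4.16 CPM in the P7 class against 104 in its rest. Calb2 had 3 to 8 UMIs in each E15 class. At P7, Plk1 had 17 UMIs in the class and 16 in its rest, and Tk1 had 39 and 32. The P7 side of these 2 genes is therefore poorly measured.

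Among list members, the value was 2.049 for Col2a1, 2.040 for Col9a2, 2.432 for Car3 and 2.416 for Mia. It was -3.615 for Hapln1, -4.688 for Epyc, -2.918 for Fgfr3, -2.740 for Pthlh and -3.795 for Wnt2. Hapln1 had only 25 and 18 UMIs at P7.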

How the results depend on the processing

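The 340 genes higher and 436 lower at E15 became 81 and 130 in a test against a fold of 2, 195 and 263 with cells thinned to 5000 UMIs, and 624 and 659 against a rest with no UMI of the 3 genes. DESeq2 called 223 lower, all of them among the 436, and 238 higher, 234 of them among the 340. Without the Col1a2 and Col3a1 minimum, 1057 genes were lower. In alternatives added after the data were seen, thinning with a minimum of 2 UMIs gave 160 and 179, and leaving out cycling cells 175 and 208. The 1418 genes with another difference at P7 became 667 with DESeq2 and 858 with thinning. Without the replicate block, which is the library, the counts were 330, 416 and 1183.

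The share of collagen IX cells was 55.3% and 53.9% with a minimum of 2 UMIs, 25.5% and 22.8% with 8, 15.3% and 18.2% with thinning, and 32.7% and 33.3% without the Col1a2 and Col3a1 minimum. The gap in cycling share was 10.1 and 14.4 points without thinning, 28.1 and 22.0 with the rule applied to thinned cells, and 29.1 points in replicate 1 with a minimum of 4 cell cycle UMIs.

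With a minimum of 40 UMIs, the log2 difference was -0.048 for Otor, -1.88 for Ibsp, -1.11 for Car2 and -0.78 for Dkk1. The comparison group then also held the other collagen IX cells. With pericyte-gene cells left out, the log2 difference was 0.21 for Tgfb1 and 0.62 for Epas1. The cause of these changes was not tested. Of the 24 genes named by size, all stayed called in the alternatives set at the start, except Otor with a minimum of 8 UMIs, Ube2c and Aurka with thinning, and Car3 in the test against a fold of 2. Leaving out an E15 library leaves no residual degree of freedom, so only folds, with no test, could be had. Depth limits the genes with few UMIs, such as Ucma (0 and 1 UMIs in the rest) and Acan (3 and 2).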
